A study of Mus musculus with 6 samples.

Results

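The genes described are 4 secreted growth factors (*Pdgfa*, *Pdgfb*, *Pdgfc* and *Hgf*) and 6 receptor tyrosine kinases (*Pdgfra*, *Pdgfrb*, *Met*, *Mst1r*, *Ret* and *Axl*), chosen by name as PDGF and HGF ligands and related receptors. All 10 are among the 17428 gene symbols of the deposited table. EpH4 is a mouse mammary epithelial cell line, and all groups are cultures of this single line in medium with serum and insulin, with no genetic manipulation. E cells were never given TGFβ1, M cells had received TGFβ1 for 7 days, and RE cells had received TGFβ1 for 7 days followed by normal medium for another 4 days. Each state was sequenced as 2 biological replicates, giving 6 libraries.

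Receptor tyrosine kinases are cell-surface proteins that dimerize when a ligand binds outside the cell and then phosphorylate each other inside it, which recruits adaptors and starts the MAP kinase and phosphoinositide 3-kinase cascades. PDGF ligands are often made by epithelial cells and platelets and read by PDGF receptors on mesenchymal cells. HGF is made by stromal cells and read by Met on epithelial cells, where it drives scattering and, in the mammary gland, branching. Mst1r (also called Ron) is the closest relative of Met, Ret is the receptor of the GDNF family together with a GFRα co-receptor, and Axl is a TAM family receptor whose ligand is Gas6.

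The deposited values behave as coverage, meaning the sum over a gene of its sequenced bases, and the libraries hold 35782513 to 47928557 reads' worth of 50 bases. Levels are in ppm (sequenced bases per 1e+06 bases of the library after TMM normalization), and means are ± SD with n = 2. Changes were tested with limma on log2(ppm + 0.1) in the 13893 genes that had 500 bases or more in 2 or more libraries, and are given as the log2 change ± its standard error (SE). The pseudocount of 0.1 makes the log2 change of low genes too small. A gene was called when its log2 change was beyond 1 in size and its limma p, adjusted by the Benjamini-Hochberg method over all of these genes, was under 0.01. A group with 3 reads' worth (150 bases) or less in every library is called at the floor, which lies at 0.0633 to 0.0787 ppm and covers counting error only. The E replicates were the least alike. The log2 ratio of their values had an SD over genes of 0.558, against 0.318 for the M and 0.309 for the RE replicates. Since the RNA is from whole cultures, fewer cells that express a gene and less of its RNA per cell cannot be told apart.

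Of the 10 genes 9 could be tested, and *Mst1r* was too low. *Hgf* entered the test only through the M libraries, so a difference in it follows in part from the filter. In E vs. M, 6 were called, all higher in the M cells, where 8.33% of all genes tested were called higher and 8.35% lower (16.7% together). All 9 had a positive log2 change there. In M vs. RE, 4 were called lower in the RE cells (4.69% of all genes) and 1 was called higher (7.98%, and 12.7% together). In E vs. RE, 3 were called higher in the RE cells (5.96% of all genes) and 0 lower (3.11%, and 9.07% together), although *Pdgfa* was lower there at an unadjusted limma p of 0.0281. The median log2 change of the 9 genes was 2.26 for E vs. M, −0.79 for M vs. RE and 0.40 for E vs. RE, beside −0.01, −0.02 and 0.00 over all genes tested. Leaving *Hgf* aside, 5, 4 and 3 of 8 genes were called.

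**Figure D1:**
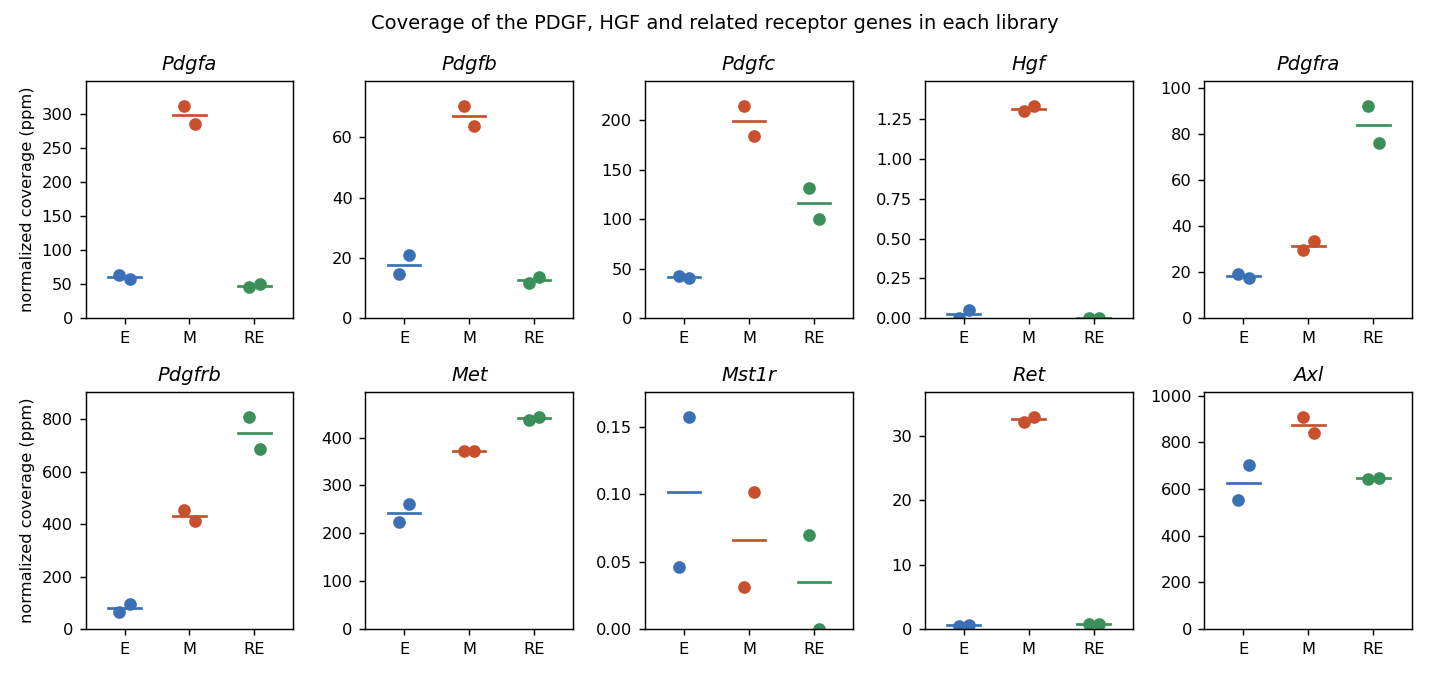
Normalized coverage in ppm (y axis, linear from 0, with its own scale in each panel) of the 10 genes in the E, M and RE cells (x axis). Each point is a library and each line the mean of 2 libraries. *Pdgfa*, *Pdgfb*, *Hgf* and *Ret* peak in the M cells, and *Pdgfra* and *Pdgfrb* are highest in the RE cells.

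Promoter sequence was taken from RefSeq (build GRCm38.p6) for 7 of the 10 genes: *Pdgfa*, *Pdgfc*, *Hgf*, *Pdgfra*, *Met*, *Mst1r* and *Axl*. The 250 bases before the most upstream start are printed for 3 ligand genes that rose together in the M cells, and for *Pdgfra*, whose called rise came in the RE cells. Capitals mark matches on either strand to 6 motifs: the SMAD box CAGAC, the Snail/Zeb E-box CACCTG, the AP-1 site TGANTCA, the GC box GGGCGG, the TATA box TATAAA and the CArG box bound by serum response factor. No marked matches overlap.
Pdgfa, chr5:138994945-138995194, minus strand: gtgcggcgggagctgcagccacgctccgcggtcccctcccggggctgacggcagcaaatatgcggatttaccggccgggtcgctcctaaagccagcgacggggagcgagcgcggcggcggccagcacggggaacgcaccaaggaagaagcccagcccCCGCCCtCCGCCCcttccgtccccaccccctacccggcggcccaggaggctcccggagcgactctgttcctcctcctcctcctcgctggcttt
Pdgfc, chr3:81036166-81036415, plus strand: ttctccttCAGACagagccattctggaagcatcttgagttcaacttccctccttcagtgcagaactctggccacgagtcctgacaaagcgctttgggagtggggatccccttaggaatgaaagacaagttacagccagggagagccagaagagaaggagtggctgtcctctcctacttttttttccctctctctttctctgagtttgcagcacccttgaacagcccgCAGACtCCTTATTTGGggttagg
Hgf, chr5:16553245-16553494, plus strand: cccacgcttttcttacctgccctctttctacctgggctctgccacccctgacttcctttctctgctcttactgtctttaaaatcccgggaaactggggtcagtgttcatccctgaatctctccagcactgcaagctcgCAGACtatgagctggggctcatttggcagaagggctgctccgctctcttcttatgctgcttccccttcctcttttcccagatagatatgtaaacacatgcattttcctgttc
Pdgfra, chr5:75152001-75152250, plus strand: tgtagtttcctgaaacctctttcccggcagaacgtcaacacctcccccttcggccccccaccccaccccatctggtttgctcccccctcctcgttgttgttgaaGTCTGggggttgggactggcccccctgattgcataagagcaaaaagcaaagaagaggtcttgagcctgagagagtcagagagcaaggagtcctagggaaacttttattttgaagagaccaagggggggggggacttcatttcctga

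The *Pdgfa* window held 2 GC boxes, the *Pdgfc* window 2 SMAD boxes and 1 CArG box, and the *Hgf* and *Pdgfra* windows 1 SMAD box each. Among 32841 promoter windows of this length, 42.2% held a SMAD box, 32.7% a GC box, 17.2% the E-box, 12.4% the TATA box, 6.75% the AP-1 site and 1.47% a CArG box. The matches describe these letters alone.

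*Pdgfa* encodes the PDGF-A chain. It was at 63.99 and 57.99 ppm in the E libraries, 311 and 285 in the M libraries and 45.4 and 50.1 in the RE libraries. Both M libraries stood above all others, and the RE libraries lay just below the E libraries. The mean was 60.99 ± 4.24 ppm in E, 298 ± 18.4 in M and 47.8 ± 3.3 in RE cells. It rose 4.88 times under TGFβ1 (2.29 ± 0.13 SE, limma adjusted p = 3.54e-05) and fell again after its removal (−2.64 ± 0.13 SE, limma adjusted p = 2.5e-05). The E and RE cells were not called different (−0.35, limma adjusted p = 0.0765). *6330403L08Rik*, on the other strand, shares exon sequence with *Pdgfa* in a newer annotation. It was covered by 15475 to 20092 bases, against 107582 to 653825 bases for *Pdgfa*, and whether strand was used in counting is not stated.

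*Pdgfb* encodes the PDGF-B chain, the ligand of both PDGF receptors. It was at 14.5 and 20.8 ppm in the E libraries, 70.2 and 63.8 in the M libraries and 11.5 and 13.8 in the RE libraries. The M libraries did not overlap with the others, and the lower E library was close to the higher RE library. The rise (3.79 times, 1.94 ± 0.20 SE, limma adjusted p = 0.000438) and the fall (−2.40 ± 0.20 SE, limma adjusted p = 0.000194) were called. E and RE cells were not called different (−0.46, limma adjusted p = 0.122).

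*Pdgfc*, whose product is secreted in a latent form and activated by proteolysis, was the ligand gene among these that was still called in the RE cells. It was at 42.2 and 40.3 ppm in the E libraries, 214 and 184 in the M libraries and 131 and 101 in the RE libraries, so that no states overlapped. It rose 4.81 times from E to M (2.26 ± 0.16 SE, limma adjusted p = 9.41e-05). The RE cells were at 2.81 times the E level (1.48 ± 0.16 SE, limma adjusted p = 0.00142). The step from M to RE missed both thresholds (−0.79, limma adjusted p = 0.0105). *Pdgfd*, the remaining PDGF gene, had 5.0 and 2.0 reads' worth in the E, 14.9 and 12.0 in the M and 9.8 and 5.98 in the RE libraries, and was not called in E vs. M (1.22, limma adjusted p = 0.0361).

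*Hgf* was detected above the floor only in the M libraries. It had 0 and 1.96 reads' worth in the E libraries, 54.7 and 54.5 in the M libraries and 0 in both RE libraries, and was at 1.3 and 1.33 ppm in the M libraries. Against the floor of 3 reads' worth per library, the M cells were at least 17.8-fold higher than the E cells and at least 19.98-fold higher than the RE cells. Both changes were called (limma adjusted p = 0.000464 and 0.00038). Even so, *Hgf* reached 0.367 ppm per kb of exon in the M cells, where *Pdgfa* was at 101.

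*Pdgfra* encodes the receptor for PDGF-A, PDGF-B and PDGF-C. It was at 19.2 and 17.6 ppm in the E libraries, 29.7 and 33.3 in the M libraries and 91.9 and 76.1 in the RE libraries. No states overlapped, and the RE libraries were the highest. The increase from E to M was under the fold threshold (0.77 ± 0.15 SE, limma adjusted p = 0.00645). From M to RE *Pdgfra* rose 2.67 times (1.41 ± 0.15 SE, limma adjusted p = 0.000598), to 4.56 times the E level (2.18 ± 0.15 SE, limma adjusted p = 0.000414). The M vs. RE call was lost without the first M library (limma adjusted p = 0.0128) and without the first RE library (0.0135). In the newer annotation *Mir7025* and, on the other strand, *Gm42802* share exon sequence with *Pdgfra*, as *Gm16000* does with *Pdgfc*.

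*Pdgfrb* encodes the receptor for PDGF-B that marks pericytes and fibroblasts in tissue. It was at 64.8 and 96.0 ppm in the E libraries, 454 and 411 in the M libraries and 809 and 689 in the RE libraries, without overlap. The mean rose from 80.4 ± 22.1 ppm in the E to 433 ± 30.0 in the M cells (5.38 times, 2.45 ± 0.20 SE, limma adjusted p = 0.000165). In the RE cells it was 749 ± 85.0 ppm, 9.31 times the E level (3.24 ± 0.20 SE, limma adjusted p = 0.000301). The difference between M and RE was not called (0.79, limma adjusted p = 0.0235).

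*Csf1r*, the receptor for colony-stimulating factor 1 and the next protein-coding gene after *Pdgfrb* in RefSeq, had another profile. It was at 1.55 and 1.28 ppm in the E libraries, 25.6 and 30.1 in the M libraries and 2.07 and 1.45 in the RE libraries. It rose under TGFβ1 (4.21 ± 0.24 SE, limma adjusted p = 3.54e-05) and fell after its removal (−3.93 ± 0.24 SE, limma adjusted p = 5.23e-05), where the log2 change of *Pdgfrb* was positive.

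*Met* encodes the HGF receptor. It was at 223 and 261 ppm in the E libraries, 373 and 372 in the M libraries and 437 and 443 in the RE libraries. No states overlapped, yet no mean differed by as much as 2 times. The log2 change was 0.62 for E vs. M (limma adjusted p = 0.00847), 0.24 for M vs. RE (0.206) and 0.86 for E vs. RE (0.00409), and none was called. With a fold threshold of 1.5, *Met* was called in E vs. M and E vs. RE. *Mst1r* had 2.0 and 6.0 reads' worth in the E, 1.3 and 4.16 in the M and 3.3 and 0 in the RE libraries, which overlap, and no difference was detectable at this depth.

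*Ret* had the largest fitted log2 changes of the 9 tested genes in E vs. M and in M vs. RE, where the change of *Hgf* is known only as a lower bound. It was at 0.506 and 0.648 ppm in the E libraries, 32.2 and 32.9 in the M libraries and 0.829 and 0.7495 in the RE libraries. The low values rest on 21.9 and 24.7 reads' worth in the E and 39.2 and 32.9 in the RE libraries, against 1357 and 1350 in the M libraries. The M cells were at 56.5 times the E level (5.60 ± 0.21 SE, limma adjusted p = 1.53e-05), and *Ret* fell again in the RE cells (−5.20 ± 0.21 SE, limma adjusted p = 1.82e-05). The RE libraries lay just above the E libraries, which was not called (0.40, limma adjusted p = 0.193).

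*Axl* had the highest level per exon length of the 10 genes in each state. It was at 551 and 703 ppm in the E libraries, 907 and 839 in the M libraries and 643 and 647 in the RE libraries. The RE libraries lay between the E libraries, and the M libraries above all. The log2 change was 0.49 for E vs. M (limma adjusted p = 0.0433), −0.44 for M vs. RE (0.0746) and 0.05 for E vs. RE (0.828), and none was called. The sign in E vs. RE turned with library totals (−0.04).

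**Figure D2:**
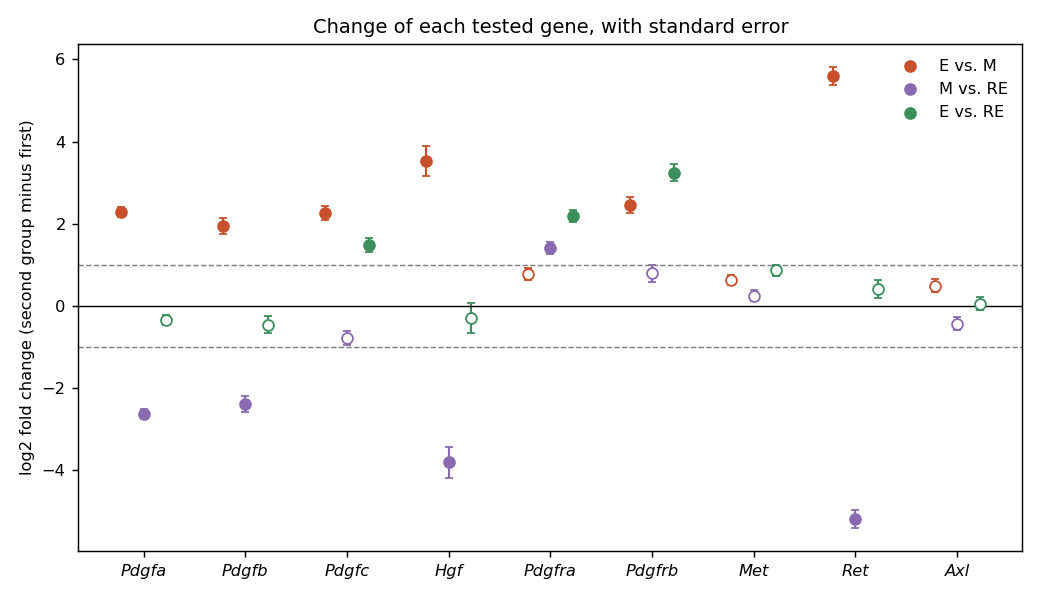
Log2 change with its SE (y axis, second state of the comparison minus the first) of the 9 tested genes (x axis) in E vs. M, M vs. RE and E vs. RE. Filled points were called, open points were not, and dashed lines mark the threshold of 1. *Ret* moves by 5.60 and −5.20, while *Met* and *Axl* stay within the lines.

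The calls in E vs. RE rest on both RE libraries. Without the first RE library, *Pdgfc*, *Pdgfra* and *Pdgfrb* were not called (limma adjusted p = 0.0259, 0.0136 and 0.0116), with log2 changes of 1.29, 2.05 and 3.13, and 9 of all genes tested were called. Without the second RE library *Pdgfc* was not called (1.67, limma adjusted p = 0.0122).

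Levels of different genes were compared as ppm per kb of exon, with exon lengths from GENCODE M21. In the E cells the order was *Axl* (146), *Met* (35.6), *Pdgfa* (20.7), *Pdgfrb* (14.7), *Pdgfc* (11.7), *Pdgfb* (6.0), *Pdgfra* (2.1) and *Ret* (0.0853), with *Mst1r* and *Hgf* last. *Pdgfrb* (11.8 and 17.5) and *Pdgfc* (12.0 and 11.4) overlapped there. In the M cells *Pdgfa* (101) was second to *Axl* (204), followed by *Pdgfrb* (79.0), *Pdgfc* (56.4) and *Met* (54.7), of which *Pdgfc* (60.7 and 52.1) and *Met* overlapped. *Pdgfb* (22.8), *Ret* (4.82), *Pdgfra* (3.59) and *Hgf* (0.367) came next.

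In the RE cells *Pdgfrb* (137) was second to *Axl* (151), and these neighbours did not differ beyond the spread of the *Pdgfrb* libraries, at 148 and 126. *Met* (64.6), *Pdgfc* (32.9), *Pdgfa* (16.2), *Pdgfra* (9.58), *Pdgfb* (4.29) and *Ret* (0.117) followed. *Pdgfra* was thus above *Pdgfb* in the RE cells and below it in the other states. The order was the same with the longest transcript of each gene as its length.

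**Figure D3:**
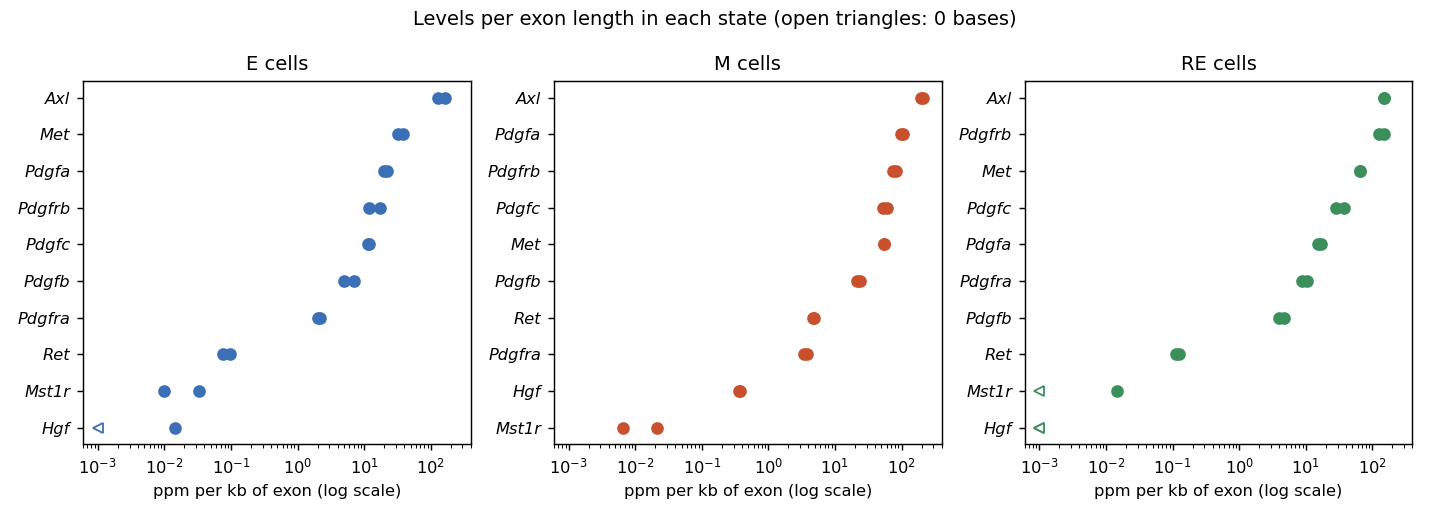
Levels in ppm per kb of exon (x axis, log scale) of the 10 genes in the E, M and RE cells, sorted by the group mean. Each point is a library, and open triangles at the left edge are libraries with 0 bases. *Axl* is first in each state, and *Pdgfrb* is second in the RE cells.

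The genes around these ligands and receptors come from 8 lists with 90 genes, of which 86 are in the table and 75 could be tested. In E vs. M, 11 were called higher and 12 lower in the M cells, 30.7% of the 75 beside 16.7% of all genes. In M vs. RE, 10 were higher and 6 lower in the RE cells (21.3% beside 12.7%), while for E vs. RE 9 were higher and 2 lower (14.7% beside 9.07%). In all, 30 of the 75 (40%) were called in at least 1 comparison, beside 23.8% of all genes. The calls of *Mst1*, *Ltk*, *Crk* and *Dcn* in E vs. M, of *Plat*, *Pcsk5* and *Hgfac* in M vs. RE, of *Ntrk2* in both of these comparisons, and of *Gas6*, *St14*, *Pik3r1*, *Stat3*, *Cblc* and *Dcn* in E vs. RE were lost under at least 1 alternative that kept all libraries.

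Of 9 other ligands and co-receptors tested, 3 were called in at least 1 comparison (33.3%, beside 23.8% of all genes). *Gas6*, the Axl ligand, was at 386 and 260.2 ppm in the E libraries, 43.7 and 42.99 in the M libraries and 877 and 718 in the RE libraries. It was lowest under TGFβ1 and highest after its removal, without overlap. Its log2 change was −2.87 for E vs. M (limma adjusted p = 9.03e-05), 4.19 for M vs. RE (2.46e-05) and 1.32 for E vs. RE (0.00428). *Pros1* (protein S), the other TAM ligand, rose in the M cells (1.95, limma adjusted p = 0.000238) and was still higher in the RE than in the E cells (1.70, limma adjusted p = 0.00118). *Mst1*, the Mst1r ligand, fell in the M cells (−2.40, limma adjusted p = 0.00613) from 59.8 and 79.5 reads' worth to 5.26 and 17.2.

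Of the GDNF family ligands of Ret that were tested (*Gdnf*, *Artn*, *Nrtn* and *Pspn*), none was called in any comparison by limma. *Gdnf* was at 21.4 and 29.2 ppm in the E libraries, 15.5 and 14.8 in the M libraries and 19.8 and 20.7 in the RE libraries (−0.72 in E vs. M, limma adjusted p = 0.0158), and *Artn* at 16.97 and 29.03, 9.47 and 10.4 and 17.4 and 23.2 (−1.16, limma adjusted p = 0.0128). *Gfra1*, the co-receptor for GDNF, had at most 2 reads' worth in any library. *Gfra2* was at the floor in the M cells, with 1.86 and 2.0 reads' worth, and *Gfra3* has no entry among the gene symbols of the deposited data.

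Of 10 ligand-activating proteases tested, 3 rose and 1 fell in E vs. M (40% together, beside 16.7% of all genes). *Plau* (urokinase) was at 63.6 and 78.8 ppm in the E libraries, 289 and 269 in the M libraries and 33.99 and 41.1 in the RE libraries, with log2 changes of 1.98 in E vs. M (limma adjusted p = 0.000147) and −2.90 in M vs. RE (3.74e-05). *Plat* (tissue plasminogen activator, which cleaves latent PDGF-C) changed in the same directions (1.86 and −1.01, limma adjusted p = 0.000438 and 0.00771), the second just past the fold threshold. *Furin*, a proprotein convertase that processes the Met precursor, was higher in the M cells (1.64, limma adjusted p = 0.000259). *Prss8* (prostasin) fell in the M cells (−2.32, limma adjusted p = 0.000199) and rose again in the RE cells (1.80, limma adjusted p = 0.000726).

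*St14* (matriptase), which can activate HGF, was at 388 and 402 ppm in the E libraries, 206 and 213 in the M libraries and 191 and 194 in the RE libraries. It was called in E vs. RE (−1.04, limma adjusted p = 0.00146) and was just under the fold threshold in E vs. M (−0.92, limma adjusted p = 0.00103). *Hgfac* (HGF activator) was at 1.0 and 1.3 ppm in the M and 0.0541 and 0.2699 in the RE libraries, and was called lower in M vs. RE (−2.38, limma adjusted p = 0.00721). That call was lost with no filter (limma adjusted p = 0.0107), with a pseudocount of 0.025 (0.0125) or 1 (log2 change −0.89), and without the first M, the second M or the first RE library (limma adjusted p = 0.0436, 0.0632 and 0.0432). The convertase gene *Pcsk5* was lower (−1.84, limma adjusted p = 0.00505) and *Pcsk6* higher (1.43, limma adjusted p = 0.000981) in RE than in M cells.

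Of 6 protease inhibitors and receptor antagonists tested, 4 were called in E vs. M (66.7%, beside 16.7% of all genes). *Spint1* and *Spint2*, which encode the HGF activator inhibitors, both fell in the M cells (−1.17 and −1.28, limma adjusted p = 0.000513 and 0.000446). *Spint1* was at 96.9 and 86.03 ppm in the E libraries, 39.6 and 41.4 in the M libraries and 50.1 and 47.5 in the RE libraries, so that the RE libraries stood nearer to the M libraries. *Pdgfrl*, a PDGF receptor-like gene without a kinase, was at 11.4 and 10.02 ppm in the E libraries, 39.1 and 41.1 in the M libraries and 76.1 and 62.7 in the RE libraries. It rose in E vs. M (1.90, limma adjusted p = 0.000145) and was higher in E vs. RE (2.68, limma adjusted p = 0.000301), and like *Pdgfra* and *Pdgfrb* it was highest in the RE cells. *Dcn* (decorin, a matrix proteoglycan that can bind Met) was at the floor in the M cells, and at 0.495 and 0.304 ppm in the E and 3.78 and 1.74 in the RE libraries. The E mean was at least 5.53-fold and the RE mean at least 38.2-fold higher, and the lower RE library at least 23.8-fold.

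Among 7 sheddases and phosphatases tested, 1 was called in at least 1 comparison (14.3%, beside 23.8% of all genes). This was *Adam10*, a sheddase (1.60 in E vs. M, limma adjusted p = 0.000252). Of 18 adaptors and effectors, 4 were called in at least 1 comparison (22.2%, beside 23.8% of all genes). *Pik3r1*, the p85α subunit of phosphoinositide 3-kinase, was at 148 and 217 ppm in the E libraries, 37.03 and 37.9 in the M libraries and 385 and 344 in the RE libraries. It fell in the M cells (−2.25, limma adjusted p = 0.000181), rose in the RE cells (3.28, 4.57e-05) and ended above the E cells (1.02, 0.00809). *Src*, a membrane-bound kinase, was lower in RE than in M cells (−1.49, limma adjusted p = 0.00066). *Stat3*, a transcription factor, was higher in the RE than in the E cells (1.15, limma adjusted p = 0.00523), and the adaptor gene *Crk* was higher in M than in E cells (1.02, limma adjusted p = 0.000907).

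Among 7 ubiquitin ligase and endocytosis genes tested, 3 were called in at least 1 comparison (42.9%, beside 23.8% of all genes). *Sh3kbp1* (CIN85, an adaptor of receptor endocytosis) was at 2.24 and 3.58 ppm in the E libraries, 37.7 and 33.7 in the M libraries and 42.2 and 45.1 in the RE libraries. It was 12.3 times the E level in the M cells (3.61, limma adjusted p = 5.47e-05) and was still higher in the RE cells (3.90, 0.000301). *Cblb*, a ubiquitin ligase that marks activated receptors for degradation, was likewise higher in both states (1.97 and 1.70, limma adjusted p = 0.000169 and 0.000917). The family member *Cblc* fell in the M cells (−2.54, limma adjusted p = 4.47e-05), rose from M to RE (1.42, 0.000593) and was lower in the RE than in the E cells (−1.13, 0.00265).

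Of 20 further receptor tyrosine kinases listed, 10 could be tested. Of these, 4 were called in at least 1 comparison (40%, beside 23.8% of all genes), *Csf1r* among them. *Ror1*, a Wnt receptor, was at 2.69 and 4.004 ppm in the E libraries, 1.42 and 1.95 in the M libraries and 29.9 and 21.4 in the RE libraries, and was higher in the RE cells than in the E (2.91, limma adjusted p = 0.000933) or the M cells (3.84, 0.000107). *Ntrk2*, a neurotrophin receptor, had 0 bases in both M libraries, and was at 0.597 and 0.566 ppm in the E and 1.24 and 0.572 in the RE libraries. The E mean was at least 8.05-fold and the RE mean at least 12.6-fold higher, and the lower RE library at least 7.82-fold. *Ltk* fell from 0.903 and 0.832 ppm in the E to 0.1995 and 0.0381 in the M libraries (−2.25, limma adjusted p = 0.00561). Only the E libraries brought *Ltk* into the test, so this fall follows in part from the filter. *Tyro3*, a TAM receptor like Axl, was not called (−0.85 in M vs. RE, limma adjusted p = 0.00548), and *Mertk*, the other one, was too low to test.

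Of 8 ligands of such receptors tested, 3 were called in at least 1 comparison (37.5%, beside 23.8% of all genes). *Kitl* (stem cell factor) was at 13.97 and 13.3 ppm in the E libraries, 1.77 and 2.32 in the M libraries and 33.03 and 24.3 in the RE libraries. It fell in the M cells (−2.69, limma adjusted p = 0.000144) and rose in the RE cells (3.74, 4.56e-05). *Il34*, a ligand of Csf1r, moved in the same directions (−1.49 and 1.22, limma adjusted p = 0.000209 and 0.000608), opposite to *Csf1r*. The other Csf1r ligand gene, *Csf1*, had higher means, at 295 ppm in E, 441 in M and 308 in RE cells. Its changes had the signs of those of *Csf1r* but were not called (0.63 and −0.52, limma adjusted p = 0.0893 and 0.171). *Ptn* (pleiotrophin) rose from 5.0 and 1.0 to 63.5 and 59.1 reads' worth in the M libraries (3.26, limma adjusted p = 0.000502).

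**Figure D4:**
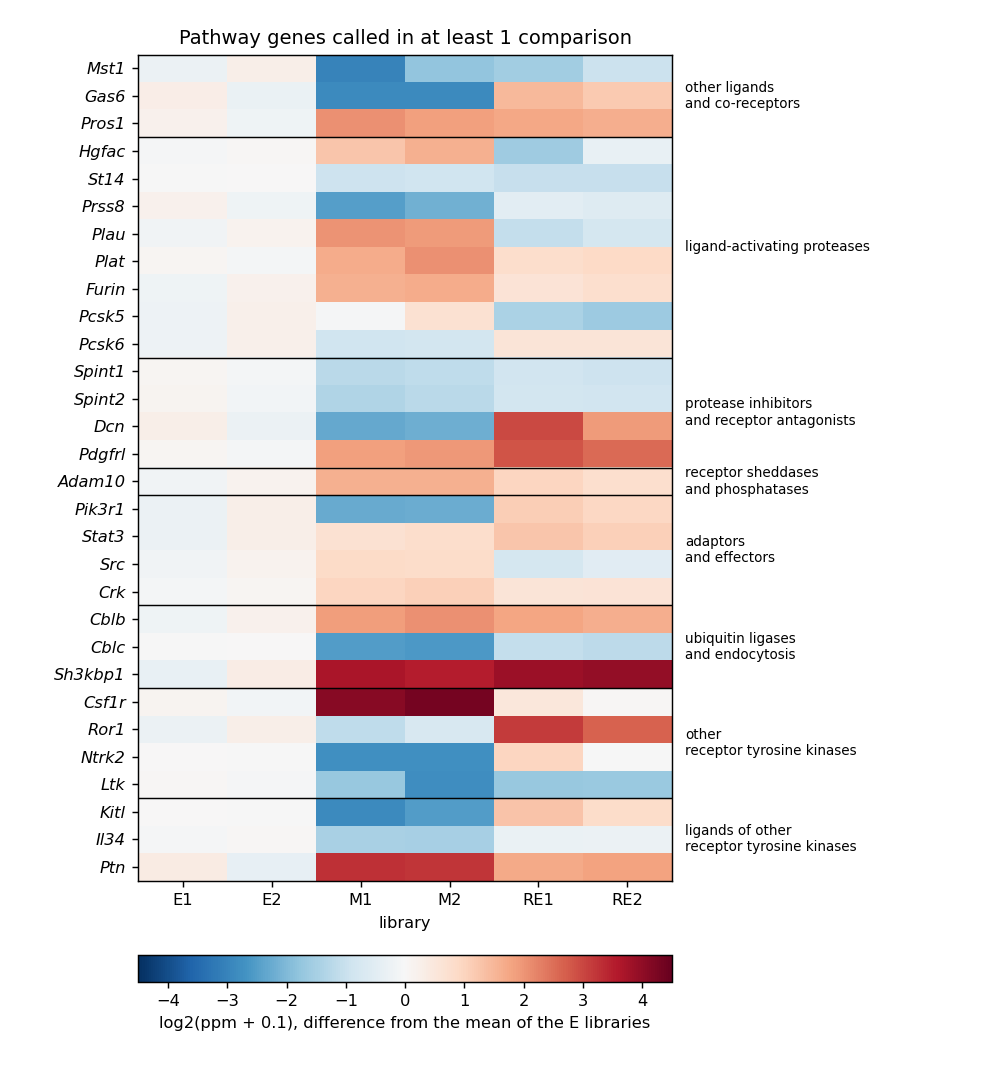
Log2(ppm + 0.1) of the 30 pathway genes called in at least 1 comparison (rows, by list), as the difference from the mean of the E libraries (colour), in each of the 6 libraries (columns). *Pdgfrl*, *Ror1* and *Sh3kbp1* are highest in the RE cells, and *Csf1r*, *Plau* and *Furin* in the M cells. Of these, *Pdgfrl* (0.78), *Sh3kbp1* (0.29) and *Furin* (−0.96) were not called in M vs. RE.

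Markers of the labelled and of other cell types were read beside these results. The 7 mammary epithelial markers in the table summed to 1433 to 1901 ppm in the E, 1739 to 1804 in the M and 909 to 970.1 ppm in the RE libraries, and none was at the floor, although *Krt5* stayed below 0.5 ppm. In E vs. M the junction genes *Cldn3*, *Cldn4* and *Cldn7* were called lower (−1.36, −1.08 and −1.89, limma adjusted p = 0.000783, 0.000892 and 7.41e-05) and *Krt14* higher (1.41, 0.00109), which the sum does not show. These junction genes and *Krt18* were also called lower in E vs. RE (−1.03, −1.285, −1.33 and −1.34, limma adjusted p = 0.00454, 0.00113, 0.000902 and 0.00332). None of the junction genes was called in M vs. RE, where *Krt8* and *Krt14* were called lower (−1.32 and −1.10, limma adjusted p = 0.000593 and 0.00394). The 7 fibroblast markers summed to 51.6 to 53.2 ppm in the E, 549.5 to 643 in the M and 302 to 346 ppm in the RE libraries, nearly all from *Col1a1* and *Col1a2*. *Thy1*, *Fap* and *Dpt* were at the floor in all states. The 7 pericyte and smooth muscle markers summed to 71.9 to 100.2 ppm in the E, 300.2 to 335 in the M and 99.3 to 105 ppm in the RE libraries, with *Mcam* the main part in the M cells and *Abcc9* at the floor in all states. *Notch3* of the same list went the other way, at 28.5 and 51.7 ppm in the E, 2.72 and 3.01 in the M and 27.04 and 24.8 in the RE libraries (−3.70 in E vs. M, limma adjusted p = 9.86e-05, and 3.13 in M vs. RE, 0.000218). The 7 macrophage and blood markers summed to 7.04 to 10.8, 33.2 to 37.5 and 8.22 to 8.27 ppm, of which *Csf1r* was the main part in the M cells, and *Ptprc* and *Cd3e* were at the floor in all states. *Cd68*, the main part in the E and RE cells, had means of 7.22 ppm in E, 6.97 in M and 5.57 in RE cells and was not called. *Lyz2* was low but called higher in E vs. RE (1.64, limma adjusted p = 0.00982), and *Itgam* was at the floor in the E cells only. The 6 endothelial markers summed to 0.373 to 0.668, 2.69 to 2.82 and 0.601 to 0.766 ppm, with *Kdr* and *Tie1* at the floor throughout. Most of the M sum was *Cdh5*, with 0 and 0 reads' worth in the E, 97.3 and 85.5 in the M and 2.0 and 4.0 in the RE libraries, at least 29.7-fold higher in M than in E cells and called in both comparisons with M (limma adjusted p = 0.000108 and 0.000254). Like *Hgf*, *Cdh5* entered the test only through the M libraries, so these calls follow in part from the filter. The part of these markers in the changes of the ligand and receptor genes was not tested.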

How the data were processed

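RNA from E, M and RE cells was sequenced by the authors on an Illumina Genome Analyzer and aligned with Bowtie and TopHat2 to mouse build NCBI m37, keeping unique reads. Versions and the step that summed reads per gene are not given in the sources used here. The deposited table holds whole numbers that behave as coverage signal (sequenced bases per gene): 44.79% to 48.42% of values from 1 to 400 are multiples of 50. The authors' edgeR test needs read counts, so limma 3.58.1 (R 4.3.3) was used instead.

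TMM factors (unweighted, against the geometric mean of the libraries, trimming 30% of log ratios and 5% of levels, genes over the minimum) ran from 0.8784 to 1.121. One model held all 6 libraries with group as the only term and an empirical Bayes trend. Data were simulated for E vs. M with a log2 change of 2 in 200 genes (199 among the 13834 run). The model called 56.8% of these and 0 others. All other genes were simulated without a change, whereas 16.7% of genes were called in the data. Each gene was also given the same spread in all groups, although the E replicates were the least alike. The 56.8% is therefore not the share of such changes found in these data. With 2 libraries per group, precision is limited by their number. p-values measure the spread between replicate libraries, pooled over all groups and moderated over all genes tested. A comparison thus also draws on the libraries of the group that is not compared.

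The 10 genes, the lists and the tests were chosen with earlier results of these data known. Named are the 10 genes, the listed genes called in at least 1 comparison (at most 8 a list), and the 2 genes nearest in profile to each called one of the 10. Other genes, such as uncalled list members and markers, were named after their values were seen. Alternatives tried were a fold threshold of 1.5, a p threshold of 0.05, median-of-ratios factors, library totals, no filter, 500 bases in every library, pseudocounts of 0.025 and 1, fitting the 2 compared groups alone, array weights, a replicate block and leaving out each library. One marker gene is not reported here. Sequences and exon lengths come from newer builds or annotations than the authors' own.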

Additional observations from a re-analysis of the deposited data

How the results depend on the processing

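Over the 10 genes, 438 of 450 values by comparison and alternative kept their direction and their side of the thresholds. 6 calls were lost, all on leaving out a library, and 3 were gained, at a fold threshold of 1.5: *Met* in E vs. M (0.62) and E vs. RE (0.86), and *Pdgfra* in E vs. M (0.77). The other 3 values, none of them called, lost their sign: *Axl* turned in E vs. RE with library totals (−0.0384) and without the first E library (range without 1 library −0.123 to 0.2196), and *Hgf* became 0 in E vs. RE without the second E library (range −0.588 to 0). Without 1 library, 5 to 6 of the 10 genes were called for E vs. M, 3 to 5 for M vs. RE and 0 to 3 for E vs. RE. The 3 came without the first M library, where *Hgf* could not be tested, and the 0 without the first RE library. *Hgf* has no value without either M library or with 500 bases in every library.

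Of the pathway genes, 17 to 34 were called for E vs. M, 7 to 20 for M vs. RE and 0 to 23 for E vs. RE without 1 library, and 5 in E vs. RE when those 2 groups alone were fitted. The low ends came without the first M library in E vs. M and without the first RE library in the others. Over all genes tested the counts were lowest in these same fits, and highest without the second E library, as for the pathway genes. With the E and RE groups alone fitted, the calls over all genes tested fell from 1260 to 454 in E vs. RE. These ranges are thus not particular to the pathway genes. Over the 30 genes called, 113 of 1506 values lost a call, 35 gained one and 4 changed sign: *St14* in M vs. RE with library totals (0.0826), and, without 1 library, *Ltk* in M vs. RE (range −0.00804 to 1.13), *Ntrk2* in E vs. RE (−0.0147 to 0.987) and *Pcsk5* in E vs. M (−0.0306 to 0.682).

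Library totals in place of TMM moved the median of all genes to −0.29 for E vs. M, 0.18 for M vs. RE and −0.08 for E vs. RE, and the share of calls that were higher from 49.9% to 30.5%, from 63% to 73.8% and from 65.7% to 57.1%. The groups share replicate numbers, but deviations of same-numbered libraries correlated at 0.267 (E with M), 0.0578 (E with RE) and 0.116 (M with RE) over 2 numbers, so the numbers were not taken as pairs. The replicate block left each call on the 10 genes in place and ended those of *Pik3r1* in E vs. RE (limma adjusted p = 0.0112) and *Plat* in M vs. RE (0.011). The cause of these differences was not tested. Depth limits *Mst1r*, *Hgf* and the low values of *Ret* most.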

Other observations

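For each of the 7 genes called in at least 1 comparison, the 2 tested genes with the nearest profile were found by the Euclidean distance between log2(ppm + 0.1) values over the 6 libraries, each gene centred on its mean. The profile nearest to *Pdgfra* was that of *Zhx1* (0.139), a zinc finger and homeobox gene, at 17.4 and 16.1 ppm in the E, 27.0 and 29.4 in the M and 88.1 and 75.7 in the RE libraries. *C230021P08Rik* (0.219) was next. The profiles nearest to *Pdgfc* were those of *Vash2* (0.267) and *Slc39a10* (0.271), those nearest to *Pdgfa* were *Gulo* (0.258) and *Csrp2* (0.269), and those nearest to *Pdgfb* were *Ugcg* (0.316) and *4930588N13Rik* (0.342). *Gulo* and *4930588N13Rik* were below 0.1 ppm in the E and RE libraries, so that their distances are set largely by the pseudocount of 0.1.

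*Pdgfrb* was matched less closely, by *AI646023* (0.394) and *Dclk1* (0.497), and *Hgf* by *Ccbe1* (0.414) and *Tmeff1* (0.482). The profile nearest to *Ret* was that of *Cdh15* (0.39), a muscle cadherin, at 0 and 0 ppm in the E, 4.91 and 5.46 in the M and 0.0422 and 0.00546 in the RE libraries. *Gpr123* (0.532) was next, at 0.93 and 0.692 ppm in the E, 36.1 and 40.9 in the M and 1.1 and 0.948 in the RE libraries. *Cdh15*, and *Hgf* itself, were below 0.1 ppm in the E and RE libraries. The distance of *Cdh15* to *Ret* and those to *Hgf* are thus also set largely by the pseudocount of 0.1. The distances rest on 6 libraries in 3 states and are a description.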
